A study of Mus musculus with 6 samples.

Results

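The 37 genes described here encode enzymes and subunits that write, remove or read chemical marks on DNA and histones: DNA methyltransferases and their partner Uhrf1, the Tet enzymes, histone deacetylases and sirtuins, Polycomb proteins, histone methyltransferases and demethylases, and the reader Brd2. They were chosen by name, and all 37 were found among the 27067 gene identifiers of the count table through their GENCODE symbols. The cells were B16F10, a pigmented mouse melanoma line. RNA was measured in 3 control libraries, whose columns are named blank, and in 3 libraries of cells that had received a Polianthes tuberosa L. (tuberose) extract. No other allele or agent is named for either group. The labels do not give the dose, duration or solvent, and do not say whether replicates were separate cultures. The p-values therefore describe spread among these 6 libraries, which may be technical, and any solvent and the extract cannot be told apart.

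DNA methylation at CpG sites is copied to the new strand after replication by Dnmt1, which Uhrf1 brings to half-methylated sites, and is set at new sites by Dnmt3a and Dnmt3b. Tet enzymes oxidise the methyl group, the first step of its removal. Histone deacetylases remove acetyl groups and mostly act in corepressor complexes, while Polycomb repressive complex 2 methylates histone H3 and Polycomb repressive complex 1 ubiquitinates histone H2A, both at silenced developmental genes. In melanoma, raised EZH2 and the demethylase KDM5B have been studied in human cells for their links to tumour growth and to slow-cycling cells.

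Library totals ran from 31183728 to 40129044 counts, and every member passed the filter on low counts, with at least 341 reads in every library. CPM below is a read count scaled to its library's TMM-adjusted total. Correlations between libraries on a log2 CPM scale were 0.998 within groups and 0.991 to 0.992 between groups. All 9 pigment cell markers were expressed, with a summed level of 17424 to 18030 CPM in controls and 14415 to 15275 CPM in treated libraries. Endothelial and keratinocyte markers summed to at most 0.519 CPM and immune markers to at most 2.004 CPM in any library. Fibroblast markers summed to 7.24 to 10.7 CPM in controls and 9.93 to 11.3 CPM in treated libraries, with Col1a1, Col1a2 and Pdgfra as the 3 of 5 above 1 CPM and with Lum, a matrix proteoglycan gene, at 0 in all controls.

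Most members were modestly lower in treated cells. Of 37 members, 20 fell, 10 rose and 7 did not pass (edgeR quasi-likelihood test, adjusted p under 0.05 over all genes). The share that changed was 81.1%, against 53% of the 15150 genes tested, 60.5% of tested protein-coding genes and 67.2% of the 9371 genes averaging 10 CPM or more, a level that all 37 members reach. The share that fell was 54.1%, against 27.9% of all tested genes and 41.7% of genes at that level. The share that rose was 27.0%, against 25.1% and 25.5%. The median log2 fold change (treated over control) was -0.14 for the members and 0.01 for all tested genes. In absolute size, the median log2 change was 0.19 for members and 0.22 for tested genes. The split depended on scaling. With library totals 12 members rose and 16 fell, and with level-dependent offsets (cyclic loess) 11 rose and 13 fell. Of the 30 members that changed, 9 of the 10 higher and 12 of the 20 lower ones passed in all 14 alternative settings.

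**Figure D1:**
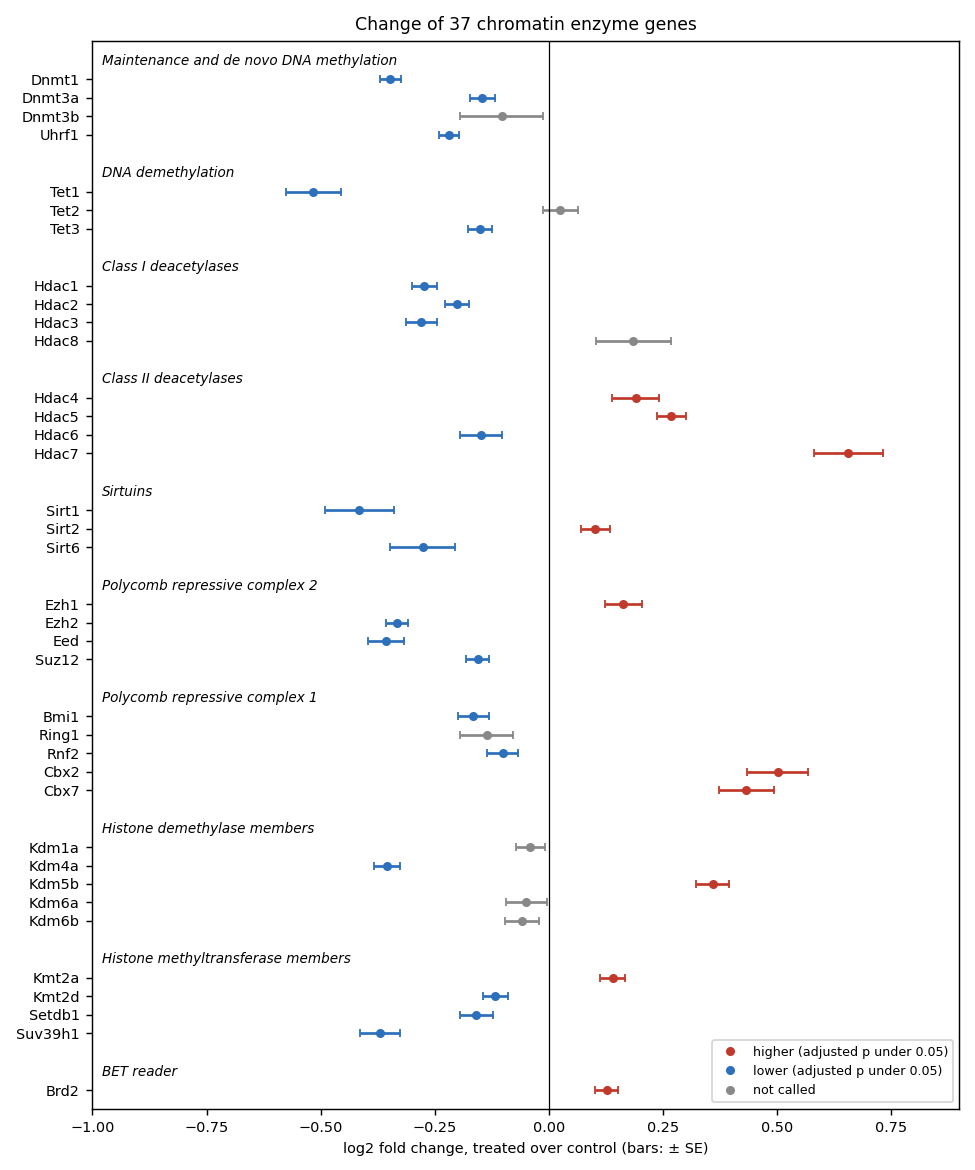
Log2 fold change (treated over control, x axis) of each of the 37 members, grouped by role; bars are ± SE and colours give the edgeR call. Points lie between -0.52 for Tet1 and 0.66 for Hdac7, with 20 lower, 10 higher and 7 not called.

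Against a minimum size of 1.2-fold (edgeR glmTreat, adjusted p under 0.05), 7 members fell and 4 rose. They were Dnmt1, Tet1, Sirt1, Ezh2, Eed, Kdm4a and Suv39h1 among the lower genes, and Hdac7, Cbx2, Cbx7 and Kdm5b among the higher ones. The background for this criterion was 7.73% of all tested genes lower and 10.2% higher, or 11.3% and 7.57% of genes at 10 CPM or more. The 7 lower genes became 1 with library totals (Tet1), 2 with level-dependent offsets (Tet1 and Sirt1), 2 in DESeq2 (Dnmt1 and Tet1) and 4 without treated replicate 2. The 4 higher genes became 5 under both of those scalings, where Hdac5 joined them, and 2 in DESeq2 (Hdac7 and Cbx2).

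The promoters of 5 lower members are shown because they share a short motif that is bound by E2F factors, the regulators of S phase genes. The motif was searched as TTTCCCGC, TTTCGCGC, TTTGCCGC or TTTGGCGC on both strands, within 250 bases before to 50 after each annotated start. It was found in 5 of 25 promoters of lower members (20%), in 0 of 14 promoters of higher members and in 0 of 6 promoters of members that did not pass. In the same windows it was found in 3.85% of 13159 promoters of tested genes and in 2.26% of all 32851 promoters. The sequences are from RefSeq (GRCm38.p6), which had 45 promoters for 33 members; Hdac1, Hdac3, Cbx2 and Kdm6b have no entry. They are written 5′ to 3′ on the strand of the gene, with each match to either strand in capitals, and are chr9:20952574-20952873 (minus strand), chr17:56304063-56304362 (plus strand), chr6:47594981-47595280 (minus strand), chr11:79992856-79993155 (plus strand) and chrX:8074312-8074611 (minus strand).
Dnmt1: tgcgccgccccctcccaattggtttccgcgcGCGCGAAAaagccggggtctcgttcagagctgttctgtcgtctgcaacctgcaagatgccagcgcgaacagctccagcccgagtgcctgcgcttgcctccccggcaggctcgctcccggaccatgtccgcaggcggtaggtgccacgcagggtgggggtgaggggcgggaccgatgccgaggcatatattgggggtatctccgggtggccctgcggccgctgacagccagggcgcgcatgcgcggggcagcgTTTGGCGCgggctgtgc
Uhrf1: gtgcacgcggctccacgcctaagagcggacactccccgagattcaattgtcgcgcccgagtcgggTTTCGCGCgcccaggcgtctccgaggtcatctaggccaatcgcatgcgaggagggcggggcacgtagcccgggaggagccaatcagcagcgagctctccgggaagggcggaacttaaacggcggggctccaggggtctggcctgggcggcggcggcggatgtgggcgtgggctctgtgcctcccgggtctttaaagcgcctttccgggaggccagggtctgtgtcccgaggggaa
Ezh2: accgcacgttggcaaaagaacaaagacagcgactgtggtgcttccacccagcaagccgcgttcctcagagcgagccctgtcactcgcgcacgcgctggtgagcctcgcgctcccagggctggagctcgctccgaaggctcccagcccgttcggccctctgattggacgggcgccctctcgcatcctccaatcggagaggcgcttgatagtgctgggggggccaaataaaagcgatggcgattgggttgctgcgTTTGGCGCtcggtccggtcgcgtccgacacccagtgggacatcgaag
Suz12: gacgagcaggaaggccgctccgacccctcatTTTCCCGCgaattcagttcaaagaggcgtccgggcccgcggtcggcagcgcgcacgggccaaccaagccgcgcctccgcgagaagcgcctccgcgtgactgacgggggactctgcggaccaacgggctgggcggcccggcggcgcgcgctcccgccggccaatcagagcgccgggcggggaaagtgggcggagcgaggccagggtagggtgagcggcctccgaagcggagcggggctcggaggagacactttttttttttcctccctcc
Suv39h1: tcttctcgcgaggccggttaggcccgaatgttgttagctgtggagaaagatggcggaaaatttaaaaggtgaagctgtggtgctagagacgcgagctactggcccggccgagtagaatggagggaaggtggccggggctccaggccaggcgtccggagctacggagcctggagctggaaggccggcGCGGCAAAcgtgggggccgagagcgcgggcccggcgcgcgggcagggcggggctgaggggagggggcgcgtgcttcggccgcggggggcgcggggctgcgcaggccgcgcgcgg

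Dnmt1, Uhrf1 and Suv39h1 also have other annotated starts whose windows held none of these spellings. All 4 spellings contain a CG, and member promoters held a median of 23 CG pairs against 20 in promoters of tested genes and 7 in all promoters. The cAMP response element TGACGTCA was in 0 of 45 member promoters and in 3.02% of promoters of tested genes. The E-box CACGTG was in 5 of the 45 (11.1%, against 9.83%), and the NRF1 motif in 4 of the 45 (8.89%, against 2%). The motifs were chosen after the values were seen. A match is a description of these letters and does not show binding.

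The maintenance pair of DNA methylation was the most abundant part of the set and fell. Per kilobase of exon, Uhrf1 ranked first of the 37 in control cells with 103.9 ± 1.12 CPM per kb and Dnmt1 second with 65.7 ± 0.806 (SD, n = 3). Dnmt1 (ENSMUSG00000004099), the gene whose promoter holds 2 of the matches shown above, measured 491, 479 and 485 CPM in control libraries and 374, 379 and 391 CPM in treated libraries. All treated values lay below all controls, by a wider gap than the spread within either group. It fell by 21.4% (-0.35 ± 0.02, SE, as a log2 fold change; edgeR adjusted p = 9.52e-12). Uhrf1 (ENSMUSG00000001228) measured 447, 442 and 438 CPM in controls and 377, 386 and 378 CPM in treated libraries, again without overlap, and fell by 14.1% (-0.22 ± 0.02, as a log2 fold change; edgeR adjusted p = 1.08e-08). Its fall shrank to -0.08 on the log2 scale with level-dependent offsets, where it still passed.

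The de novo enzymes moved less. Dnmt3a (ENSMUSG00000020661) measured 144, 144 and 147 CPM in controls and 130, 135 and 128 CPM in treated libraries. It fell by 9.61% (edgeR adjusted p = 1.07e-04), which did not pass with level-dependent offsets (log2 fold change -0.05, adjusted p = 0.178). Dnmt3b (ENSMUSG00000027478) was scarce, between 10.1 and 12.7 CPM in all 6 libraries with overlapping groups (log2 fold change -0.10 ± 0.09, edgeR adjusted p = 0.361). Of the per-length level of the 3 methyltransferase genes, Dnmt1 made up 85.7 ± 0.267% in control and 83.8 ± 0.497% in treated libraries (exact permutation p = 0.10, the smallest that 3 against 3 libraries allow). The ratio of Dnmt1 to Dnmt3a reads, which does not depend on library scaling, was 3.40, 3.33 and 3.29 in controls and 2.87, 2.81 and 3.05 in treated libraries, without overlap.

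Among the Tet genes, Tet1 fell most of all 37 members. Tet1 (ENSMUSG00000047146) measured 29.8, 28.6 and 29.6 CPM in controls and 21.6, 19.99 and 20.03 CPM in treated libraries, and fell by 30.1% (-0.52 ± 0.06, as a log2 fold change; edgeR adjusted p = 1.44e-07). It held its call and its fall beyond 1.2-fold in each of the 14 alternatives, with log2 fold changes from -0.56 to -0.44. Tet3, the most abundant Tet gene per length, fell by 9.94% (edgeR adjusted p = 5.44e-05), which did not pass with level-dependent offsets (log2 fold change -0.04, adjusted p = 0.231). Tet2 was at 81.3 to 87.9 CPM in controls and 82.0 to 91.2 CPM in treated libraries, a difference of 0.03 ± 0.04 in log2 units (edgeR adjusted p = 0.609). It passed as a rise of 0.10 under library totals (adjusted p = 0.0282) and under level-dependent offsets (0.0336), and turned negative without control replicate 1 or treated replicate 2. Tet1 made up 10.5 ± 0.226% of the per-length level of the 3 Tet genes in controls and 8.06 ± 0.440% in treated libraries (exact permutation p = 0.10).

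**Figure D2:**
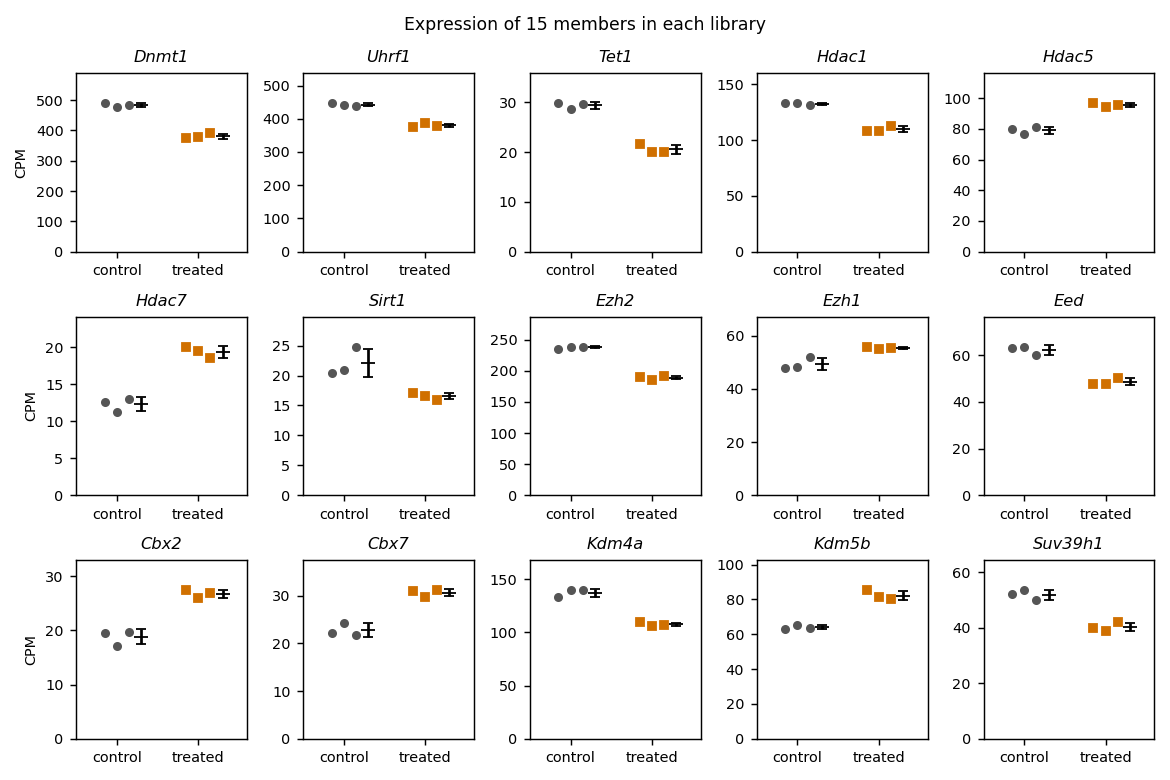
Expression in CPM (y axis, from 0) of 15 members in each control (circles) and treated (squares) library, with the group mean and SD beside them. In each of these genes all 3 treated libraries lie on one side of all 3 controls, above in Hdac5, Hdac7, Ezh1, Cbx2, Cbx7 and Kdm5b and below in the other panels.

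The class I and class II members were mostly called in opposite directions. Of the class I genes, Hdac1, Hdac2 and Hdac3, the catalytic subunits of the main nuclear corepressor complexes, all fell, and Hdac8 did not pass. Hdac1 (ENSMUSG00000028800) measured 133, 133 and 131 CPM in controls and 108, 109 and 113 CPM in treated libraries (log2 fold change -0.27 ± 0.03, edgeR adjusted p = 1.87e-08). Hdac3 (ENSMUSG00000024454), a corepressor-bound enzyme, went from 79.1 ± 0.222 to 65.2 ± 1.28 CPM (SD, n = 3), and fell by 17.6%. Hdac2, the most abundant deacetylase in the set per length, fell by 13.0%. Groups did not overlap in any of the 3. Hdac8, at 10.95 to 12.6 CPM in controls and 13.1 to 14.2 CPM in treated libraries, differed by 0.19 ± 0.08 on the log2 scale without passing (edgeR adjusted p = 0.0631). It passed as a rise under 3 alternatives, one of them library totals (adjusted p = 0.00972).

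Class II enzymes shuttle between nucleus and cytoplasm and have roles as signal-responsive repressors. Of the 4 class II members, 3 rose and 1 fell. Outside the members, the class II gene Hdac10 fell by 0.40 on the log2 scale (edgeR adjusted p = 1.58e-04). Hdac9, also of class II, was not called (edgeR adjusted p = 0.509). Hdac7 (ENSMUSG00000022475), a class IIa enzyme, had the largest rise of the 37 and the lowest per-length level in control cells. It measured 12.6, 11.2 and 13.0 CPM in controls and 20.1, 19.5 and 18.6 CPM in treated libraries, 1.58-fold higher (log2 fold change 0.66 ± 0.08, edgeR adjusted p = 1.39e-07). Hdac5 (ENSMUSG00000008855) measured 79.7, 76.7 and 81.1 CPM in controls and 96.8, 93.9 and 95.3 CPM in treated libraries, a rise of 20.5%. Hdac4 rose by 14.1%, but 22.4% of its exonic length is shared with an antisense gene, and whether counting used strand is not stated. Hdac6, a cytoplasmic tubulin deacetylase and the remaining class II member, fell by 9.79% (edgeR adjusted p = 0.00790), which did not pass with library totals (adjusted p = 0.195). The 4 class II genes made up 15.9 ± 0.397% of the per-length level of Hdac1 to Hdac8 in controls and 19.9 ± 0.459% in treated libraries, with no overlap (exact permutation p = 0.10).

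The sirtuins, deacylases that use NAD, were split. Sirt1 (ENSMUSG00000020063), a nuclear deacetylase of histones and of transcription factors such as p53, measured 20.5, 21.01 and 24.9 CPM in controls and 17.1, 16.6 and 15.985 CPM in treated libraries, and fell by 25.0% (-0.42 ± 0.08, as a log2 fold change; edgeR adjusted p = 7.27e-05). One control library stood above the other two, and all 3 stood above every treated library. Sirt6, a chromatin-bound deacetylase, went from 26.4, 21.8 and 23.8 CPM in controls to 20.5, 19.96 and 19.2 CPM in treated libraries (log2 fold change -0.28 ± 0.07, edgeR adjusted p = 0.00233). Sirt2, a mainly cytoplasmic enzyme, was 7.31% higher (edgeR adjusted p = 0.00881), and its call was lost without treated replicate 3 (adjusted p = 0.0756).

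Polycomb repressive complex 2 showed opposite changes of its alternative catalytic subunits. Ezh2 (ENSMUSG00000029687), the more active methyltransferase and the form typical of dividing cells, measured 236, 239 and 239 CPM in controls and 190, 186 and 191 CPM in treated libraries, and fell by 20.6% (-0.33 ± 0.02, as a log2 fold change; edgeR adjusted p = 1.01e-10). Ezh1 (ENSMUSG00000006920), the form typical of resting cells, measured 48.0, 48.4 and 52.1 CPM in controls and 55.9, 55.0 and 55.3 CPM in treated libraries, a rise of 12.0% (log2 fold change 0.16 ± 0.04, edgeR adjusted p = 0.00174). Neither gene's groups overlapped. Both kept their calls in the 14 alternatives.

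The read ratio of Ezh2 to Ezh1 was 4.91, 4.93 and 4.59 in controls and 3.39, 3.38 and 3.45 in treated libraries, a 1.41-fold fall (log2 difference -0.50, exact permutation p = 0.10, adjusted p = 0.20 over 8 ratios). Per length, Ezh1 made up 15.7 ± 0.544% of both genes' level in controls and 20.8 ± 0.199% in treated libraries. The core subunits also fell. Eed (ENSMUSG00000030619), which reads the complex's own methyl mark, went from 63.0, 63.7 and 59.8 CPM to 47.7, 47.8 and 50.2 CPM, and fell by 21.9% (edgeR adjusted p = 7.90e-08). Suz12, which holds the complex together and ranked behind Uhrf1 and Dnmt1 alone in level per length, fell by 10.2% (edgeR adjusted p = 1.27e-05). That call was lost with level-dependent offsets (log2 fold change -0.03, adjusted p = 0.390).

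Among the Polycomb repressive complex 1 members, Cbx2 and Cbx7 rose, Bmi1 and Rnf2 fell slightly and Ring1 did not pass. The other chromobox genes Cbx6 and Cbx8 were not called (edgeR adjusted p = 0.239 and 0.0732). Cbx2 (ENSMUSG00000025577), a chromobox subunit that compacts chromatin, measured 19.6, 17.2 and 19.8 CPM in controls and 27.5, 25.9 and 26.9 CPM in treated libraries, 1.42-fold higher (log2 fold change 0.50 ± 0.07, edgeR adjusted p = 1.01e-06). Cbx7 (ENSMUSG00000053411), a chromobox subunit that binds the Polycomb methyl mark, measured 22.1, 24.4 and 21.7 CPM in controls and 30.9, 29.8 and 31.2 CPM in treated libraries, 1.35-fold higher (log2 fold change 0.43 ± 0.06, edgeR adjusted p = 2.03e-06). Treated libraries were above all controls in both.

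Bmi1, the ring partner of the ubiquitin ligase, measured 153, 153 and 146 CPM in controls and 129, 131 and 143 CPM in treated libraries (log2 fold change -0.17 ± 0.03, edgeR adjusted p = 2.71e-04). One treated library came close to the lowest control, and the call was lost with level-dependent offsets (adjusted p = 0.114). The ligase genes themselves had somewhat smaller estimated changes than Bmi1. Rnf2 fell by 0.10 ± 0.03 on the log2 scale (edgeR adjusted p = 0.0148), a call lost with library totals (adjusted p = 0.584), with level-dependent offsets (0.450), without treated replicate 1 (0.0526) and without treated replicate 2 (0.0635). Ring1 stood at -0.14 ± 0.06 on that scale without passing (edgeR adjusted p = 0.0540), although its groups did not overlap.

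**Figure D3:**
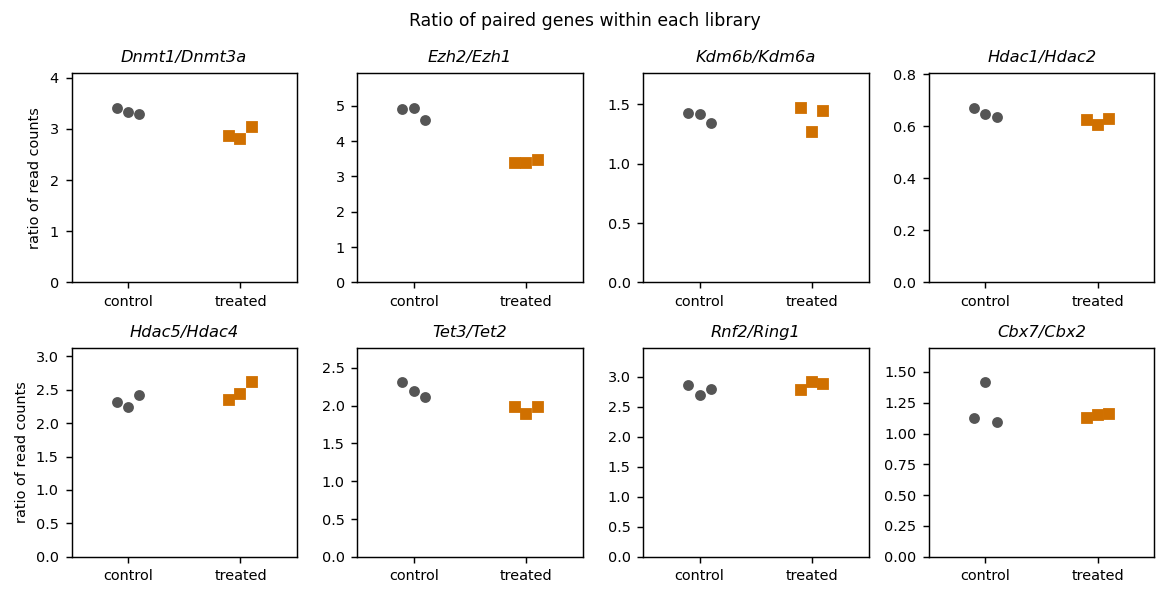
Ratio of read counts of paired genes within each control (circles) and treated (squares) library, on y axes from 0. Treated libraries lie below all controls for Dnmt1/Dnmt3a, Ezh2/Ezh1, Hdac1/Hdac2 and Tet3/Tet2, with the widest gap for Ezh2/Ezh1, and overlap the controls in the other 4 panels.

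Of the 8 ratios of paired genes, 4 did not overlap between groups, each with the smallest exact permutation p possible (0.10, adjusted p = 0.20), so that the design could not reach 0.05. Besides those given above, Tet3/Tet2 was 1.13-fold lower in treated libraries and Hdac1/Hdac2 1.05-fold lower. The ratios Hdac5/Hdac4 and Rnf2/Ring1 had log2 differences of 0.08 and 0.04, with exact permutation p = 0.20 and 0.40. Those of Cbx7/Cbx2 and Kdm6b/Kdm6a were -0.07 and -0.01, with exact permutation p = 0.90 and 1.

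Histone demethylases included a clear rise, a clear fall and 3 genes without a call. Kdm5b (ENSMUSG00000042207), which removes methyl groups from an active promoter mark, measured 63.1, 65.5 and 63.9 CPM in controls and 85.4, 81.3 and 80.0 CPM in treated libraries, 1.28-fold higher (log2 fold change 0.36 ± 0.04, edgeR adjusted p = 9.95e-09). Kdm4a (ENSMUSG00000033326), which acts on a heterochromatin mark, measured 133, 140 and 139 CPM in controls and 109, 106 and 106 CPM in treated libraries, and fell by 21.8% (-0.35 ± 0.03, as a log2 fold change; edgeR adjusted p = 4.20e-10). In both, the gap between groups was wider than the spread within them. Kdm6a and Kdm6b, which oppose Ezh2 by removing its mark, had log2 fold changes of -0.05 ± 0.05 and -0.06 ± 0.04 (edgeR adjusted p = 0.390 and 0.189). Kdm1a, a demethylase of corepressor complexes, had -0.04 ± 0.03 (edgeR adjusted p = 0.293). Groups overlapped in these 3 genes, and their signs turned with library totals.

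Among the 4 histone methyltransferase members outside Polycomb, Suv39h1 (ENSMUSG00000039231), which deposits the mark of constitutive heterochromatin, fell most. It measured 52.2, 53.6 and 50.1 CPM in controls and 39.965, 38.8 and 41.9 CPM in treated libraries, and fell by 22.6% (-0.37 ± 0.04, as a log2 fold change; edgeR adjusted p = 1.88e-07). An antisense gene shares 14.6% of its exonic length. Setdb1, a methyltransferase of the same mark with links to melanoma in fish models, fell by 10.4% (edgeR adjusted p = 8.36e-04). Its call was lost with library totals (adjusted p = 0.0677) and with level-dependent offsets (0.0579).

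The activating methyltransferases differed. Kmt2a measured 130, 124 and 128 CPM in controls and 141, 138 and 142 CPM in treated libraries, a rise of 10.2% (edgeR adjusted p = 1.91e-04). Kmt2d fell by 7.78% (edgeR adjusted p = 0.00116), lost with library totals (adjusted p = 0.259) and with level-dependent offsets (0.795). Brd2, a BET reader of acetylated histones, measured 261, 251 and 252 CPM in controls and 283, 272 and 279 CPM in treated libraries, a rise of 9.25% (edgeR adjusted p = 1.69e-04). Antisense genes share 9.78% of the exonic length of Brd2, and whether counting used strand is not stated. Treated and control values did not overlap in Kmt2a, Kmt2d or Brd2.

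Across the 37 members, groups did not overlap in 32, against 58.7% of tested genes. In 21 of them treated libraries were below controls (30.3% of tested genes) and in 11 above (28.4%). These shares of tested genes were not computed for genes at 10 CPM or more, the level of all 37 members. At that level more genes passed the edgeR test (67.2%, against 53% of all tested genes). The members that fell were the more abundant ones: their median control level was 17.4 CPM per kb, against 5.54 for those that rose and 6.05 for those that did not pass. Level-dependent offsets, which remove a trend of change with level, moved 18 of the 20 lower members and 8 of the 10 higher ones upwards, and library totals moved all 30. Library totals moved the median of all tested genes upwards by 0.078 in log2 units. For the members it went from -0.14 to -0.04 with these offsets and to -0.06 with library totals. In the plot of member changes under 3 scalings, level-dependent offsets left Tet1 at -0.51, Sirt1 at -0.44, Suv39h1 at -0.33, Eed at -0.30, Kdm4a at -0.26, Ezh2 at -0.22 and Dnmt1 at -0.21, and left Hdac7 at 0.62, Cbx2 at 0.50, Cbx7 at 0.44 and Kdm5b at 0.43.

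**Figure D4:**
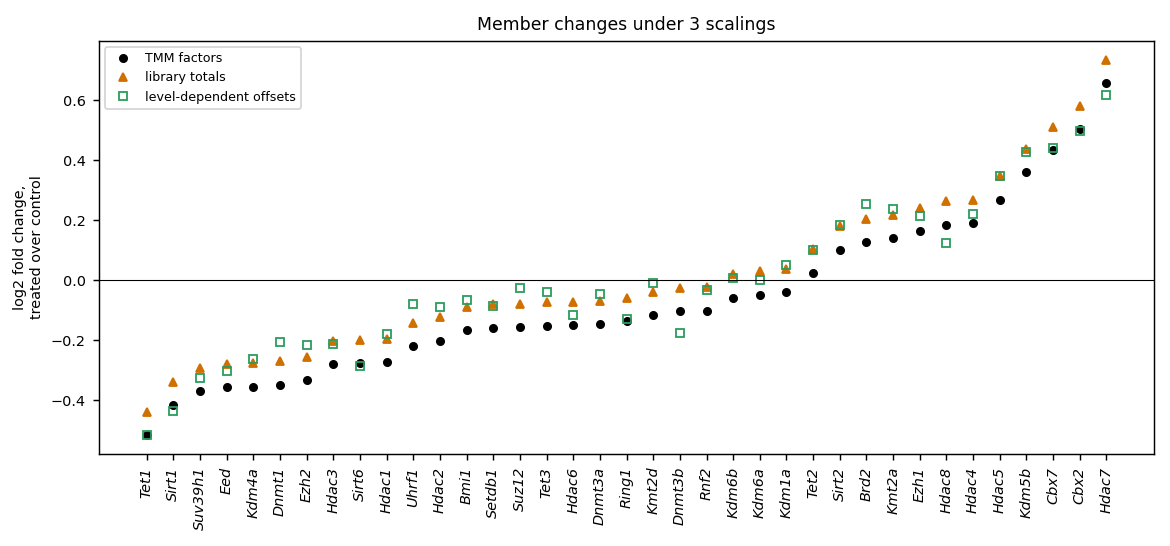
Log2 fold change (treated over control, y axis) of the 37 members in order, under TMM factors (circles), library totals (triangles) and level-dependent offsets (squares). Library totals place members higher than TMM does, and both ends of the order, from Tet1 to Hdac7, keep their sign.

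Cell division genes were lower in the same libraries. Of all tested genes 27.9% fell, and of those at 10 CPM or more 41.7%. Of 20 S phase genes 18 fell (90%) and 0 rose, with a median log2 fold change of -0.39. Of 20 mitosis genes 19 fell (95%) and 0 rose, with a median of -0.29. With library totals 17 and 17 fell, and with level-dependent offsets 18 and 15, and 1 mitosis gene rose under each of these scalings. Beside these, the 5 members shown with an E2F match, Dnmt1, Uhrf1, Ezh2, Suz12 and Suv39h1, changed by -0.35, -0.22, -0.33, -0.16 and -0.37. They are 5 of the 18 lower members with a promoter entry. Lower members whose promoters held no match include Tet1 at -0.52, Sirt1 at -0.42, Eed at -0.36 and Kdm4a at -0.35. The call of Suz12 was lost with level-dependent offsets. Mcm5 and Mcm6, subunits of the replicative helicase, fell by 0.62 and 0.60 on the log2 scale, Tyms by 0.77 and the mitotic kinase gene Plk1 by 0.49. The part of cell division in the changes of the members was not tested, and fewer dividing cells cannot be told apart from less RNA per cell in bulk libraries.

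The share of partner genes that fell is to be read against 27.9% of all tested genes and 41.7% of genes at 10 CPM or more, and the share that rose against 25.1% and 25.5%. Of 28 other deacetylases and corepressor subunits, 16 fell (57.1%), 2 rose (7.14%) and 10 did not pass, with a median log2 fold change of -0.12, while library totals gave 12 lower and 7 higher. The NuRD remodeller gene Chd3 fell by 0.56 on the log2 scale, the histone-binding subunit gene Rbbp7 by 0.32 and the NuRD subunit gene Mta1 by 0.25. The deacetylase gene Hdac10 fell by 0.40. Of 17 DNA methylation partners in the table, 7 fell (41.2%) and 6 rose (35.3%; median 0.01), or 4 and 8 with level-dependent offsets. Tdg, the glycosylase that excises oxidised methylcytosine, fell by 0.47 on the log2 scale, Mbd3 by 0.50 and Ctcf, an insulator protein gene, by 0.39, while the methyl-CpG binding factor gene Zbtb4 rose from 9.64 to 16.8 CPM, a log2 difference of 0.81 (edgeR adjusted p = 9.94e-09).

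Of 26 Polycomb partners 11 fell (42.3%, near the share of genes at 10 CPM or more), 5 rose (19.2%) and 10 did not pass (median log2 fold change -0.04), or 6 fell and 10 rose with library totals. L3mbtl2, a subunit of a variant complex 1, fell by 0.49 on the log2 scale, Phc1 by 0.33, Bcor by 0.29 and Phf19, which recruits complex 2, by 0.43. Rybp, a subunit of variant complex 1, rose by 0.37. Of 30 other methyltransferases and readers 21 fell (70%) and 6 rose (20%; median -0.19), or 15 and 6 with library totals. In that list Dpy30 and Ash2l, shared subunits of the Kmt2 complexes, fell by 0.51 and 0.41 on the log2 scale, the corepressor gene Trim28, which recruits Setdb1, fell by 0.43, Kmt5a by 0.41 and Prmt5 by 0.35.

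Of 14 other tested demethylase genes 5 rose (35.7%) and 4 fell (28.6%; median log2 fold change 0.02), or 7 and 3 with library totals. Kdm7a rose from 71.4 to 108 CPM, a log2 difference of 0.60 (edgeR adjusted p = 2.74e-12). The hypoxia-responsive Kdm3a rose by 0.19 on the log2 scale and Kdm5a by 0.17, and Hr, from 7.04 CPM, by 0.30, whereas Kdm5c fell by 0.25. The call of Hr was lost with level-dependent offsets (adjusted p = 0.180). Of 16 acetyltransferases and bromodomain readers 9 fell (56.2%) and 1 rose (6.25%; median -0.09), or 7 and 3 with library totals, with Hat1, which acetylates new histones, lower by 0.45, Kat5 by 0.48, Kat2a by 0.31, Kat7 by 0.29 and Kat6a by 0.27 on the log2 scale.

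**Figure D5:**
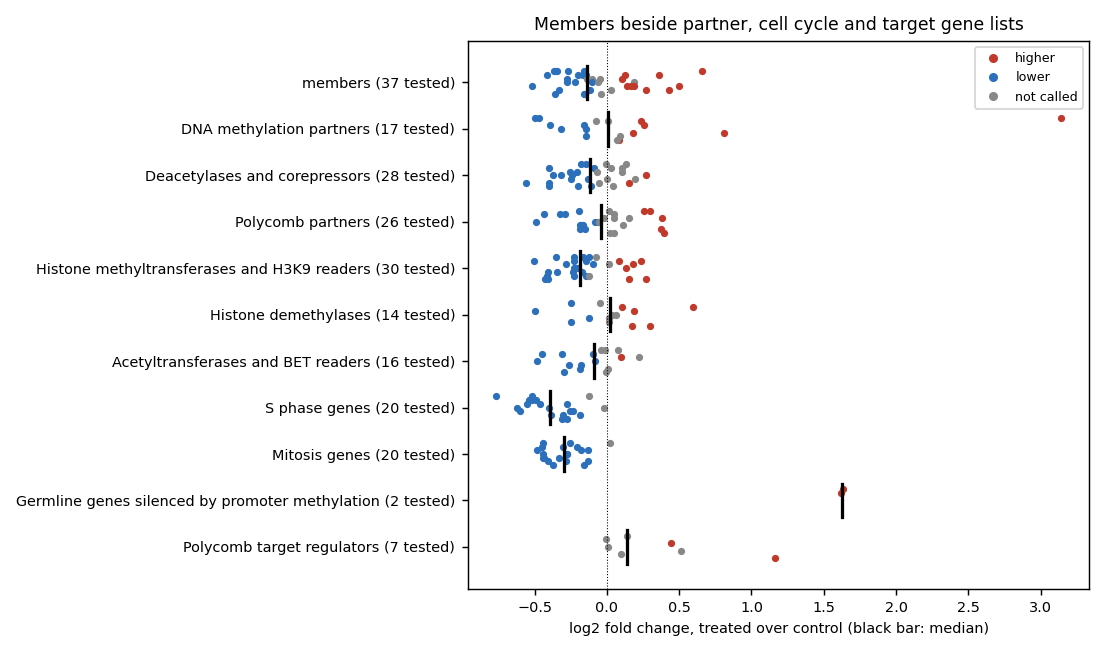
Log2 fold change (treated over control, x axis) of the members and of each list of partner, cell cycle and target genes; points are tested genes coloured by the edgeR call and black bars are medians. Medians are -0.14 for the members, -0.39 for S phase and -0.29 for mitosis genes, and between -0.19 and 0.02 for the 6 partner lists.

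Few of the listed target genes of these marks passed the filter on low counts. Of 18 germline genes that promoter methylation keeps off, 11 were in the table and 2 passed the filter on low counts, which genes high in the treated group alone can pass. The RNA helicase gene Ddx4 had 6, 14 and 15 reads in controls and 38, 37 and 32 in treated libraries, and Tdrd9, a piRNA pathway gene, had 9, 2 and 4 against 10, 20 and 15. Both remained near 1 CPM or below, with ratios of summed reads of 3.16 and 3.10. Neither gene reached the filter's minimum count of 10 in all 3 controls. Their values are therefore a description and no test is given. Of 28 regulators known as Polycomb targets, 7 were tested. Of these 2 rose (28.6%, near the 25.1% of all tested genes) and 0 fell (against 27.9%). The imprinted inhibitor gene Cdkn1c rose from 0.498 to 1.12 CPM and Hoxa9 from 3.96 to 5.38 CPM (edgeR adjusted p = 0.00307 and 0.00656), and the other 5 had adjusted p of at least 0.109. With level-dependent offsets Cdkn1c passed (adjusted p = 0.0229) and Hoxa9 did not (0.0699).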

How the data were processed

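Polyadenylated RNA of 6 B16F10 libraries was sequenced by a commercial provider, per the labels' protocols. The deposited table holds raw read counts per Ensembl mouse gene, which the authors made with fastp 0.22.0, HISAT2 2.2.0 and featureCounts 2.0.6, per the submitters' processing notes. These list hg38 and mm39 without a role, and the sources used here do not give annotation or strand setting. All 6 columns were matched through library names (0 unmapped), and 0 rows name no gene. GENCODE M21 gave symbols to 26531 of 27067 identifiers, and exon lengths.

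Genes were kept by filterByExpr (minimum count 10, total 15), libraries were scaled by TMM, and group was the single term in edgeR 4.0.16 (glmQLFit, glmQLFTest, and glmTreat at 1.2-fold; R 4.3.3), with Benjamini-Hochberg adjustment over 15150 genes and a threshold of 0.05. The code was tested on simulated data. CPM uses TMM-scaled totals. SE is the absolute log2 fold change over the square root of F. The count ratios of paired genes had 0.5 added. Alternatives were median-of-ratios factors, library totals, cyclic loess offsets (limma 3.58.1), 2 filters, protein-coding genes, a replicate block, DESeq2 1.42.0 and leaving out each library. Members, lists and tests were chosen with earlier results of these data known. All members are described. Each list contributes by name at most 4 changed genes, by smallest p, plus at most 2 of at least 5 CPM by size of change, and promoter motifs were chosen after the values were seen. Libraries of 1 group differed beyond sampling noise in every pair (chi-square per gene of at least 3.28). Counts of overlapping and antisense genes are uncertain without strand. Some results that meet these rules are not reported here.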

Additional observations from a re-analysis of the deposited data

How the results depend on the processing

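Counts of members kept to within 1.5 times of 10 higher and 20 lower in all settings except level-dependent offsets (13 lower). Beyond 1.2-fold, the 7 lower members became 1 with library totals, 2 with level-dependent offsets, 2 in DESeq2 and 4 to 6 with 1 library left out, and the 4 higher ones became 2 in DESeq2 and 3 to 4 with 1 library left out. Among partner, cell cycle and target genes, 29 were higher and 105 lower, with 46 higher under library totals. Signs turned for members without a call: Kdm1a (0.0379 with library totals, 0.0498 with level-dependent offsets), Kdm6a (0.0293 with library totals), Kdm6b (0.0193 and 0.0072) and Tet2 (-0.0008 without control replicate 1, -0.0195 without treated replicate 2, in a range up to 0.0552 without treated replicate 3). With 1 library left out, log2 differences of paired ratios ran from -0.048 to 0.061 for Kdm6b/Kdm6a, -0.143 to 0.042 for Cbx7/Cbx2 and -0.530 to -0.478 for Ezh2/Ezh1. The cause of these shifts was not tested.

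With the replicate number as a block, 10 members were higher and 20 lower, as without it, and 3804 genes rose and 4257 fell over the table. Libraries with the same number did not deviate together from their group means (correlations -0.0118, -0.0190 and 0.0353), so the numbers are not taken as pairs. Precision at 3 libraries a group is limited for Dnmt3b, Hdac8, Hdac7 and Sirt1, the members with the largest standard errors (0.08 to 0.09 on the log2 scale).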

Other observations

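Dnmt3l, the catalytically inactive cofactor of the de novo methyltransferases, was chosen after its values were seen. It had 4, 0 and 2 reads in control libraries and 24, 18 and 12 in treated libraries, a mean of 0.0539 against 0.534 CPM. The ratio of summed reads was 9.30. The gene passed the filter on low counts through its treated libraries alone, so its values are a description and no test is given. The gene remained under 1 CPM in every library. Uhrf2, the paralog of Uhrf1, was also named after its values were seen: its mean was 75.8 CPM in controls and 89.4 CPM in treated libraries, a rise of 0.24 on the log2 scale (edgeR adjusted p = 2.19e-06), opposite to Uhrf1 in the same libraries. The difference between Uhrf1 and Uhrf2 was not tested.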
